A study of Mus musculus with 6 samples.

Results

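The genes described here are the peroxisome proliferator-activated receptors (PPARs), their retinoid X receptor (RXR) partners and the coregulators that PPAR-RXR pairs recruit, in mouse liver. The set was given by name: Ppara, Ppard and Pparg, Rxra and Rxrb, the coactivators Ppargc1a, Ppargc1b, Ncoa1 and Med1, and the corepressor Ncor1. These are 10 of 54532 gene identifiers in the deposited tables. All 10 were among the 11672 genes averaging 0.5 FPKM (reads or fragments per unit of exon length and of library size) or more over the 6 libraries, and each was at or above that mean in both groups. The study compared livers of Arid2 LKO mice (LKO, 3 libraries) with livers of Arid2 WT mice (WT, 3 libraries), both labelled as given no treatment. Arid2 encodes a subunit of the chromatin remodeller PBAF, and fatty liver and the kinase JAK2 are named in the title of the series. LKO is not spelled out in the labels, and the allele, the driver of its deletion, and the age and diet of the mice are not given in the labels. They do not state either that each library is 1 mouse, so p-values here cover only library-to-library spread, which may be technical.

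PPARs are ligand-activated transcription factors that bind DNA as heterodimers with an RXR, at direct repeats of AGGTCA with 1 base between the copies. Fatty acids and their derivatives act as ligands. Without ligand the pair holds corepressors such as NCoR1, and with ligand it recruits coactivators: NCoA1 (also called SRC-1), the PGC-1 proteins, and MED1, through which the Mediator complex contacts RNA polymerase. In liver, PPAR-alpha is the main isotype of hepatocytes and drives fatty acid oxidation in fasting. PPAR-gamma is best known from fat cells, is low in healthy hepatocytes and is known to be higher in fatty liver of mice.

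The Pparg gene has several start sites, and each FPKM value covers the gene as a whole, so transcripts from different starts could not be told apart here. RefSeq (GRCm38.p6) gave 14 start windows for 9 of the 10 genes and none for Ppargc1b. Of these, 3 belonged to Pparg. The one farthest downstream is the start known for the fat-cell isoform PPAR-gamma2, and the 250 bases before it, at chr6:115421816-115422065 on the plus strand, are shown because this window lies outside every annotated exon. Capitals would mark matches to AGGTCA or to the direct repeat, and this window had none.
Pparg, downstream start: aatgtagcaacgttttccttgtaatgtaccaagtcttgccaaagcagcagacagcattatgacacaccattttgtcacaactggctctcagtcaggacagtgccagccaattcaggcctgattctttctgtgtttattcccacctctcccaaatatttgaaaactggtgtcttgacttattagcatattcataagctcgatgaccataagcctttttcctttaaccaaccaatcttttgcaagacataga
G and C made up 40.8% of this window, against 82.4% and 63.6% of the windows before the upstream Pparg starts, each of which held 1 AGGTCA. The median over all 32851 RefSeq windows was 52.4%.

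The direct repeat AGGTCANAGGTCA was searched on both strands in the 250 bases before every RefSeq start, with at most 2 of its 12 fixed letters differing. It matched in 3.24% of all 32851 windows and in 1 of the 14 windows of the receptor and coregulator genes, at Rxra. Among known targets of the receptors, the windows of Cd36, Plin2 and Fabp1 are shown with it because the first and second were higher in every LKO library (values below) and Fabp1 held the closest match. Capitals mark the whole matched stretch, with its spacer base and the letters that differ, flanked by 8 bases each side. It is written 5′ to 3′ in the direction of the gene.
Rxra, chr2:27709217-27709229, plus strand: ctgagtaaTGGTCATAGGCCAgtgggtgg
Cd36, chr5:17835947-17835959, minus strand: tggttctcTGGCCTCTGACTTacttggat
Plin2, chr4:86670272-86670284, minus strand: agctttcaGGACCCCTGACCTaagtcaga
Fabp1, chr6:71199812-71199824, plus strand: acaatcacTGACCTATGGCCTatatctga
At Rxra the repeat read along the gene and at the other 3 it read on the opposite strand. The match at Fabp1 had 11 of 12 letters and the others 10. The repeat matched in 4 of 35 windows (11.4%) of a list of PPAR-alpha target genes and in 6 of 22 windows (27.3%) of a list of PPAR-gamma target genes, where a gene with several starts counts once per window. Each list holds genes known for such sites. The STAT site TTCNNNGAA, searched because of the JAK2 context, matched in 0 of the 14 windows of the receptor and coregulator genes, against 7.02% of all windows. A match describes letters, and its absence says only that the letters are not in the window.

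In every list of 3 values here, libraries stand in the order of their replicate numbers. FPKM steps corresponded to 13947782 to 18159279 reads in LKO libraries and 16140521 to 17312285 in WT libraries. Mitochondrially encoded transcripts made up 27.6%, 7.72% and 4.76% of reads in LKO replicates 1 to 3, and 20.7%, 10.2% and 18.5% in WT replicates 1 to 3. Both replicate 1 libraries stood apart from the other 4, with 2368 (LKO) and 2003 (WT) genes at 1 to 5 reads, against 3913 to 4263. Arid2 itself, summed over the whole gene, was at 2.55, 1.33 and 2.04 FPKM in LKO libraries and at 2.65, 1.74 and 1.79 FPKM in WT libraries, so it did not check the labels. LKO and WT therefore name what the labels say, in every direction given here.

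None of the 10 genes passed the test over all genes (limma on log2(FPKM + 1), adjusted p under 0.05), where 0.0428% of the 11672 genes tested did (0.00857% higher and 0.0343% lower in LKO). A single gene of the 10, Pparg, had an unadjusted p under 0.05, against 9.22% of the genes tested. The levels still separated for some. In deposited FPKM, all 3 LKO libraries exceeded all 3 WT libraries for 3 of the 10 (Pparg, Ppara and Ncor1), against 8.00% of all tested genes, and the opposite held for 0 of the 10, against 7.42%. As a share of the reads of its library, Ppara was lower in LKO replicate 2 (593 of 16894014) than in WT replicate 2 (648 of 17312285). Ncor1 was likewise lower in LKO replicate 1 (782 of 13947782) than in WT replicate 1 (1138 of 16889735). For Pparg the lowest LKO share (158 of 13947782, replicate 1) was above the highest WT share (82 of 16140521, replicate 3). The median log2 difference was 0.20 over the 10 genes and 0.03 over all tested genes, with 9 of 10 and 54.1% fitted above 0. Ppargc1b was the exception. LKO replicate 3 was the highest of the 6 libraries for 6 of the 10 genes (Ppara, Pparg, Rxra, Ppargc1a, Ncoa1 and Ncor1), against 25.9% of all tested genes.

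**Figure D1:**
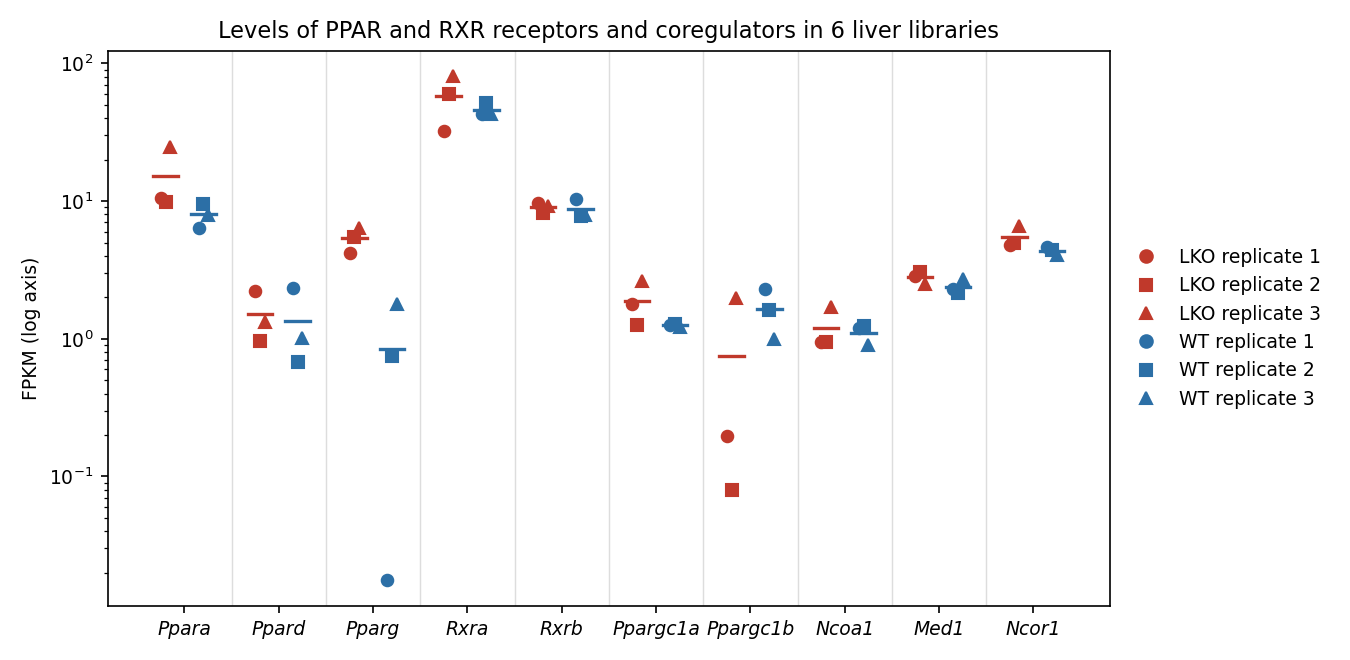
FPKM (log axis) of the 10 genes in each library, with LKO points left of WT points, 1 symbol per replicate number and a bar at the mean of 3 libraries. Pparg and Ppargc1b spread most, with WT replicate 1 at 0.0176 FPKM for Pparg and LKO replicate 2 at 0.0802 FPKM for Ppargc1b.

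FPKM is per exon length, so levels can be set in order across the genes. Rxra was the highest in both groups, with a mean of 57.6 FPKM in LKO libraries and 45.8 FPKM in WT libraries, and lay above 92.9% of the tested genes in mean FPKM. Ppara and Rxrb followed (means over the 6 libraries of 11.6 and 8.87 FPKM) and their ranges overlapped, with Ppara above Rxrb in 5 of 6 libraries. Ncor1, at a mean of 4.91 FPKM, lay below Rxrb in every library and its range did not meet that of Rxrb. From Ncor1 down, through Pparg, Med1, Ppargc1a, Ppard, Ppargc1b and Ncoa1, the ranges of each pair of neighbours overlapped. Pparg held the lowest place of the 10 by WT mean and place 5 by LKO mean. Ppargc1b held place 10 by LKO mean and place 6 by WT mean.

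Pparg (ENSMUSG00000000440) spans 115360951 to 115490399 on the plus strand of chromosome 6 (mm10, as for all coordinates here). LKO replicates 1 to 3 held 158, 255 and 357 of its reads, which gave 4.21, 5.52 and 6.36 FPKM. WT replicates 1 to 3 held 1, 39 and 82, which gave 0.0176, 0.751 and 1.78 FPKM. All LKO libraries lay above all WT libraries, and the WT libraries differed among themselves by more than counting error. The single read of WT replicate 1 allows up to 0.0979 FPKM (exact Poisson 95% interval, counting error only), while WT replicate 3 had an interval of 1.41 to 2.21 FPKM. Means were 5.37 ± 1.08 FPKM in LKO libraries and 0.849 ± 0.884 FPKM in WT libraries (SD, n = 3 each), 6.32-fold higher in LKO. With 1 library left out the fold ran from 4.24 (without WT replicate 1) to 14.0 (without WT replicate 3). The fitted difference was 1.89 ± 0.37 on the log2(FPKM + 1) scale (SE, limma, 95% interval 1.01 to 2.76, limma adjusted p = 0.187). It was 3.23 with a pseudocount of 0.1 FPKM and 4.16 with voom on recovered reads (limma adjusted p = 0.339 and 0.355). With array quality weights, which gave WT replicate 3 a weight of 5.44 and LKO replicate 1 a weight of 0.299, the difference was 1.44 and the limma adjusted p was 0.0302. Pparg was then 1 of 10 members called, where 10.2% of all tested genes were called.

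Ppara (ENSMUSG00000022383, chromosome 15, 85734983 to 85802819, plus strand) was at 10.6, 9.89 and 24.9 FPKM in LKO libraries and at 6.41, 9.60 and 7.99 FPKM in WT libraries. LKO replicate 3 stood far above the rest. The gap between LKO replicate 2 and WT replicate 2 was small in FPKM and reversed as a share of reads. The fitted difference was 0.74 ± 0.38 on the log2(FPKM + 1) scale (SE, limma, 95% interval -0.16 to 1.63, limma adjusted p = 0.628), and 0.33 without LKO replicate 3. Ppard, the isotype expressed in most tissues (ENSMUSG00000002250, chromosome 17), was at 2.23, 0.962 and 1.33 FPKM in LKO libraries and at 2.35, 0.673 and 1.01 FPKM in WT libraries. Its groups overlapped, and both replicate 1 libraries were above the other 4. Its fitted difference was 0.13 (95% interval -0.62 to 0.88, limma adjusted p = 0.948), and its sign turned without LKO replicate 1 (-0.067) or WT replicate 2 (-0.080).

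The make-up of the PPAR family differed between libraries. Ppara took 62.1%, 60.4% and 76.4% of summed PPAR FPKM in LKO libraries, and 73.0%, 87.1% and 74.2% in WT replicates 1 to 3. Pparg took 24.8%, 33.7% and 19.5% in LKO replicates 1 to 3, against 0.200%, 6.81% and 16.5% in WT replicates 1 to 3. Every LKO share of Pparg was above every WT share, though LKO replicate 3 and WT replicate 3 lay close. The mean share of Pparg was 26.0 ± 7.19% in LKO libraries and 7.83 ± 8.20% in WT libraries (SD, n = 3 each; difference 18.2 percentage points, exact permutation p = 0.1, two-sided, the smallest that 3 against 3 allows). Of 5 such balances between members tested, 4 were at this smallest p, and the adjusted value over the 5 was 0.125 for each of these 4. The balances are not independent, since the Pparg share and the ratios of Pparg to Ppara and RXR to PPAR use the same Pparg and Ppara values.

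**Figure D2:**
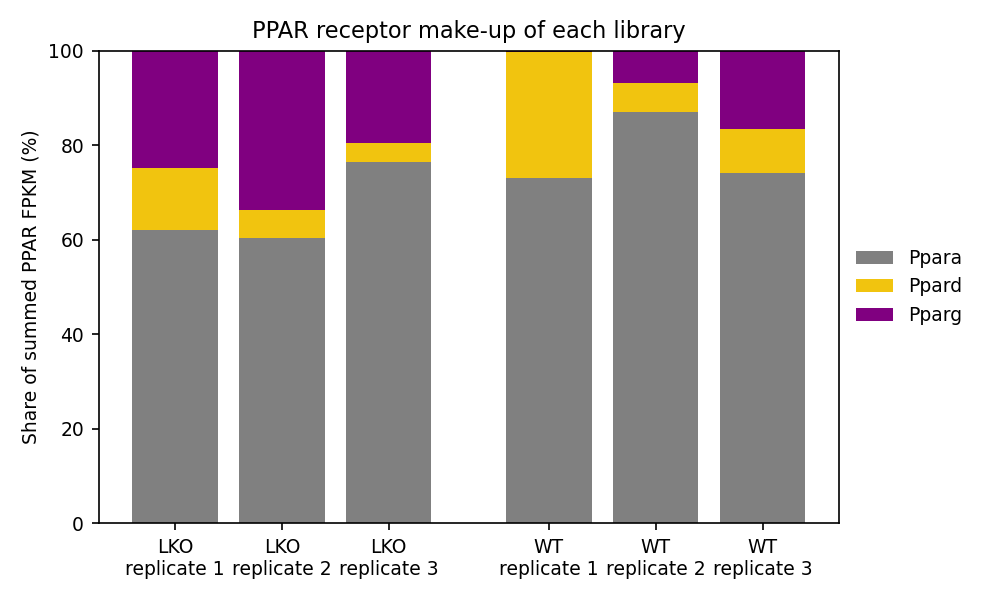
Share of summed PPAR FPKM (percent) taken by Ppara, Ppard and Pparg in each library, LKO on the left. Pparg takes 19.5% to 33.7% in LKO libraries and 0.200% (too thin to see) to 16.5% in WT libraries, and Ppard is largest in WT replicate 1, at 26.8%.

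The RXRs did not separate the groups. Rxra, the main RXR of hepatocytes (ENSMUSG00000015846, chromosome 2, 27676440 to 27762957, plus strand), was at 32.1, 59.7 and 81.1 FPKM in LKO libraries, both the lowest and the highest of the 6 libraries. It was at 43.0, 51.5 and 42.7 FPKM in WT libraries. The standard deviation was 24.6 FPKM in LKO and 4.98 FPKM in WT libraries. The fitted difference was 0.24 ± 0.38 (SE, limma, 95% interval -0.66 to 1.13, limma adjusted p = 0.909), and its sign turned without LKO replicate 3 (-0.06). Rxrb, the broadly expressed RXR (ENSMUSG00000039656, chromosome 17), was at 9.71, 8.15 and 9.21 FPKM in LKO libraries and 10.4, 7.76 and 7.98 FPKM in WT libraries. Its fitted difference was 0.05 (95% interval -0.50 to 0.60, limma adjusted p = 0.972), with the sign turned without WT replicate 2 (-0.018), without WT replicate 3 (-0.00064), with quantile normalization (-0.084) and with scaling to sums of reads (-0.054).

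Set against the PPARs, the level of the RXRs was lower in every LKO library than in any WT library. The log2 ratio of summed RXR to summed PPAR FPKM was 1.30, 2.05 and 1.47 in LKO replicates 1 to 3, and 2.61, 2.43 and 2.23 in WT replicates 1 to 3. The difference of the means was -0.82 (exact permutation p = 0.1, two-sided). With Rxrg, the remaining RXR gene, in the sum the difference was -0.83 (exact permutation p = 0.1). Summed PPAR FPKM was 17.0, 16.4 and 32.6 in LKO libraries and 8.78, 11.0 and 10.8 in WT libraries, while summed RXR FPKM overlapped. The log2 ratio of Pparg to Ppara, with 0.1 FPKM added to each, was -1.31, -0.83 and -1.95 in LKO libraries and -5.79, -3.51 and -2.11 in WT libraries. It tests whether the 2 receptors differed unequally between the genotypes (difference 2.44, exact permutation p = 0.1, two-sided). With 1 FPKM added the difference was 1.15 and the groups overlapped (exact permutation p = 0.2), and the difference was 1.45 without WT replicate 1 and 1.42 without both replicate 1 libraries, with 0.1 FPKM added.

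**Figure D3:**
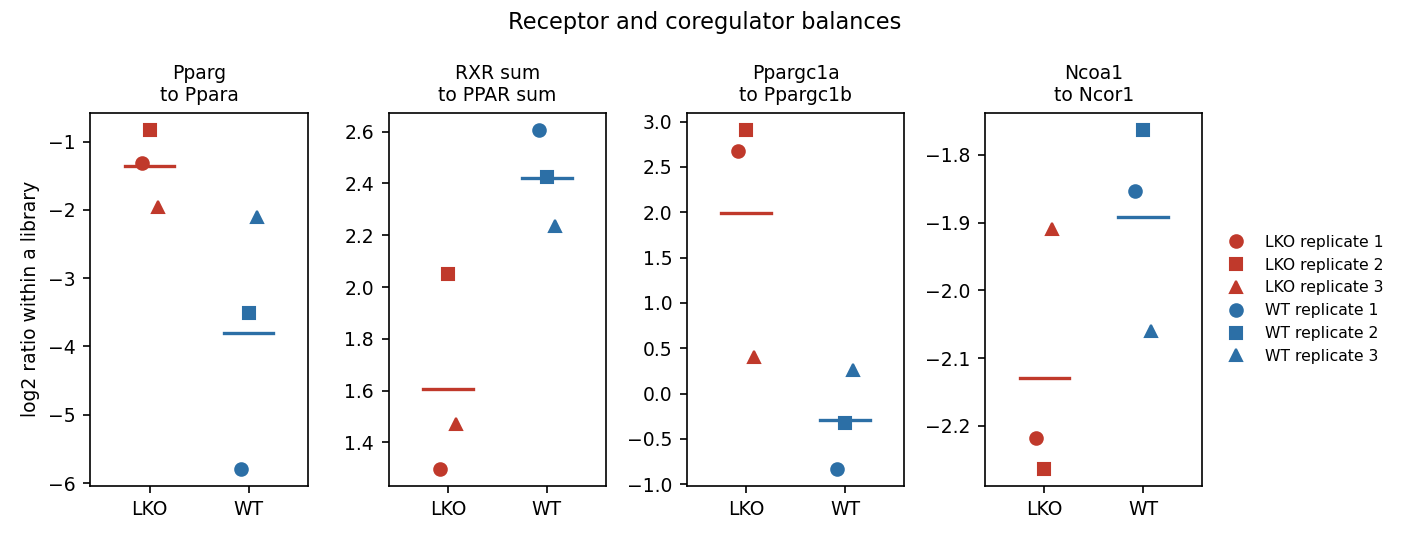
Log2 ratios within a library for Pparg to Ppara, summed RXR to summed PPAR, Ppargc1a to Ppargc1b and Ncoa1 to Ncor1, LKO left of WT, with bars at the means of 3 libraries. Pparg to Ppara and Ppargc1a to Ppargc1b are higher in every LKO library than in any WT library, RXR to PPAR is lower, and Ncoa1 to Ncor1 overlaps.

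The PGC-1 coactivator genes had fitted differences of opposite sign, neither past the test. Ppargc1a, which encodes PGC-1alpha, a coactivator of gluconeogenic and oxidative genes in fasting (ENSMUSG00000029167, chromosome 5), was at 1.80, 1.25 and 2.63 FPKM in LKO libraries, and at 1.26, 1.28 and 1.21 FPKM in WT libraries. LKO replicate 2 lay within the narrow WT range and the other 2 LKO libraries above it. The fitted difference was 0.34 ± 0.23 (SE, limma, 95% interval -0.20 to 0.87, limma adjusted p = 0.739), 0.16 without LKO replicate 3, 0.50 without LKO replicate 2 and 0.14 with array quality weights. Ppargc1b, which encodes PGC-1beta, a coactivator linked to lipogenic and lipoprotein genes (ENSMUSG00000033871, chromosome 18), had 10, 5 and 149 reads in LKO replicates 1 to 3, which gave 0.197, 0.0802 and 1.97 FPKM. WT replicates 1 to 3 had 178, 114 and 62, which gave 2.31, 1.62 and 0.995 FPKM. LKO replicates 1 and 2 were below every WT library with counting intervals apart (at most 0.363 FPKM, against at least 0.763 FPKM in WT), but LKO replicate 3 lay inside the WT range. The fitted difference was -0.73 ± 0.41 (SE, limma, 95% interval -1.69 to 0.24, limma adjusted p = 0.660). It was -1.19 without LKO replicate 3 (limma adjusted p = 0.146), -1.79 with a pseudocount of 0.1 FPKM, -2.11 with voom, -0.46 without LKO replicate 2 and -0.35 without both replicate 1 libraries. The log2 ratio of Ppargc1a to Ppargc1b, with 0.1 FPKM added, was 2.68, 2.91 and 0.40 in LKO libraries and -0.83, -0.33 and 0.26 in WT libraries (difference 2.29, exact permutation p = 0.1, two-sided). The groups did not overlap, and LKO replicate 3 lay next to WT replicate 3. The difference of this ratio was 1.06 with 1 FPKM added.

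The fitted differences of the other 3 coregulators lay between 0.05 and 0.26. Ncor1, the corepressor (ENSMUSG00000018501, chromosome 11, 62316426 to 62458541, minus strand), was at 4.80, 4.96 and 6.64 FPKM in LKO libraries and at 4.61, 4.42 and 4.05 FPKM in WT libraries. In FPKM the groups did not overlap, but the gap between LKO replicate 1 and WT replicate 1 was small. As a share of reads the groups overlapped. The fitted difference was 0.26 ± 0.23 (SE, limma, 95% interval -0.27 to 0.79, limma adjusted p = 0.805), and 0.14 without LKO replicate 3. Ncoa1, the p160 coactivator (ENSMUSG00000020647, chromosome 12), was at 0.955, 0.955 and 1.69 FPKM in LKO libraries and at 1.20, 1.23 and 0.896 FPKM in WT libraries, and the groups overlapped. Its difference of 0.05 (95% interval -0.45 to 0.54, limma adjusted p = 0.971) turned to -0.11 without LKO replicate 3, to -0.028 without WT replicate 3 and to -0.011 with scaling to sums of reads. Med1 (ENSMUSG00000018160, chromosome 11) was at 2.84, 3.08 and 2.48 FPKM in LKO libraries and at 2.31, 2.14 and 2.73 FPKM in WT libraries, with a difference of 0.16 (95% interval -0.31 to 0.64, limma adjusted p = 0.876). The log2 ratio of Ncoa1 to Ncor1, with 0.1 FPKM added, was -2.22, -2.26 and -1.91 in LKO libraries and -1.85, -1.76 and -2.06 in WT libraries, and the groups overlapped (difference -0.24, exact permutation p = 0.2, two-sided). With 1 FPKM added they did not overlap, every LKO ratio lying below every WT ratio (difference -0.21, exact permutation p = 0.1, two-sided). Exons of other genes covered 0.793% of Ncoa1 exon bases and 0.648% of Ncor1 exon bases, and none of those of the other 8 genes. These partners lie on the opposite strand, and with no strand setting stated their reads there cannot be told apart.

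**Figure D4:**
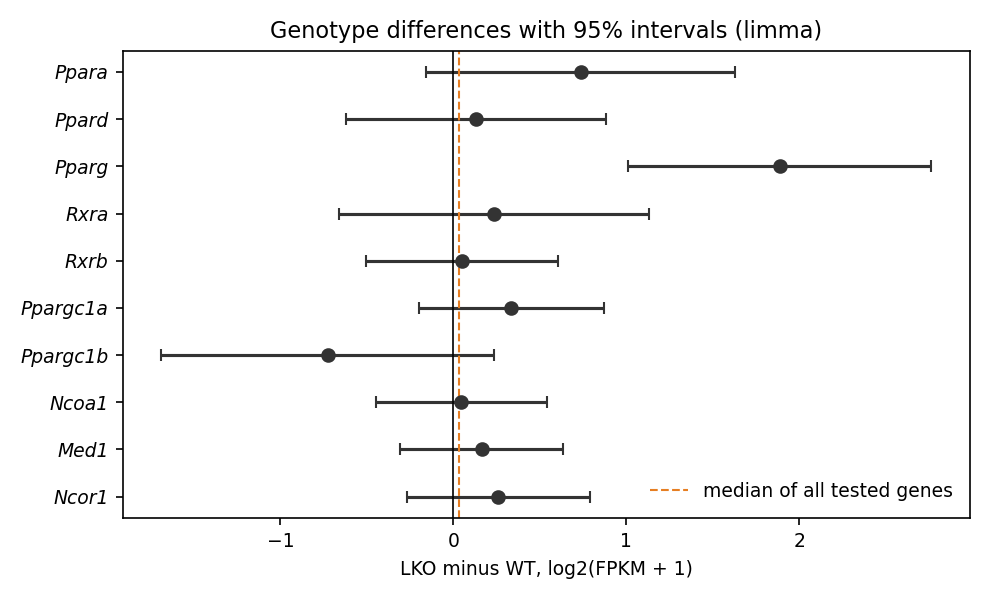
LKO minus WT difference on the log2(FPKM + 1) scale for each of the 10 genes, with 95% intervals from limma, and the median of all tested genes as a dashed line. The interval of Pparg, 1.01 to 2.76, lies above 0 and those of the other 9 genes cross 0.

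Genes that PPARs are known to activate were counted beside all tested genes, of which 8.00% lay above, 7.42% lay below and the median log2 difference was 0.03. Of 46 PPAR-alpha target genes 44 were tested and 0 passed (limma), but 11 were higher in each LKO library than in any WT library and 1 was lower in each, and their median log2 difference was 0.53. The 11 included genes of several compartments of fatty acid oxidation: Ehhadh and Hsd17b4 of peroxisomes, the microsomal hydroxylase genes Cyp4a10 and Cyp4a14, and Acadl and Acot2 of mitochondria. These separations are of deposited FPKM. As a share of reads, Ehhadh, Hsd17b4 and Acadl were lower in LKO replicate 1 (2765, 4871 and 2166 of 13947782) than in WT replicate 2 (3616, 6656 and 2920 of 17312285). Cyp4a10, Cyp4a14 and Acot2 still separated the groups by share of reads. Acot2, an acyl-CoA thioesterase, was at 8.53, 15.5 and 10.4 FPKM in LKO libraries and at 1.06, 3.24 and 1.89 FPKM in WT libraries (log2 difference 2.05, limma adjusted p = 0.135). Pdk4, the kinase that holds back pyruvate dehydrogenase in fasting, was at 11.8, 3.24 and 1.66 FPKM in LKO libraries, lowest in LKO replicate 3 where Ppara was highest, and at 0.192, 0.599 and 0.419 FPKM in WT libraries (log2 difference 1.91, limma adjusted p = 0.323). Its WT mean of 0.403 FPKM was under the filter of 0.5 FPKM, so it was tested only through its LKO values. Among the 43 genes of the list at or above 0.5 FPKM in both groups 10 lay above and 1 below, against 7.84% above and 6.09% below of all 10784 such genes. Cyp4a14 was at 81.2, 123 and 231 FPKM in LKO libraries and at 1.08, 51.4 and 3.57 FPKM in WT libraries (log2 difference 4.07, limma adjusted p = 0.319). The member below was Cyp4a32, at 13.1, 13.7 and 14.7 FPKM in LKO libraries and at 34.2, 28.9 and 21.5 FPKM in WT libraries (log2 difference -0.95, limma adjusted p = 0.337). Cyp4a genes are near-identical in long stretches, so reads may be split between them and their values are uncertain.

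By library, the PPAR-alpha targets did not follow the genotype strictly. Each gene was centred on its own mean log2(FPKM + 1), and the median over the 44 genes was -0.0052, 0.43 and 0.48 in LKO replicates 1 to 3, and -0.90, 0.31 and -0.32 in WT replicates 1 to 3. WT replicate 2, which had the highest Ppara of the WT libraries, thus lay above LKO replicate 1 on this scale. The list's median difference was 0.25 without WT replicate 1. Without LKO replicate 3 there were 12 genes above and 1 below, where 15.5% of all tested genes were above and 14.7% below.

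Of 24 PPAR-gamma target genes of fatty liver and fat cells 14 were tested and 0 passed (limma). In 5 all LKO libraries lay above all WT libraries and in 1 all lay below, and their median log2 difference was 0.62, or 0.38 without WT replicate 3. Without LKO replicate 3, 6 were above and 2 below, against the same 15.5% and 14.7% of all tested genes. Cd36, a fatty acid transporter, was at 9.38, 16.7 and 26.6 FPKM in LKO libraries, in the order of Pparg, and at 1.86, 5.81 and 2.67 FPKM in WT libraries, not in its order (log2 difference 2.05, limma adjusted p = 0.231). Plin2, a lipid droplet coat protein, was at 253, 283 and 146 FPKM in LKO libraries and at 22.6, 109 and 39.4 FPKM in WT libraries (log2 difference 2.22, limma adjusted p = 0.306). Cidec, which fuses lipid droplets, was at 61.8, 65.5 and 4.71 FPKM in LKO libraries, lowest in LKO replicate 3 where Pparg was highest, and at 1.70, 2.33 and 2.38 FPKM in WT libraries (log2 difference 3.20, limma adjusted p = 0.320). Fitm2, which acts in droplet formation, was at 13.3, 19.8 and 23.9 FPKM in LKO libraries and at 7.48, 11.2 and 9.33 FPKM in WT libraries (log2 difference 0.93, limma adjusted p = 0.400). The fifth above was the acyl-CoA synthetase gene Acsl1, which is on both target lists, and the member below was the lipoprotein lipase gene Lpl. Acsl1 separated in FPKM only. As a share of reads it was lower in LKO replicate 1 (12074 of 13947782) than in WT replicate 2 (15060 of 17312285).

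**Figure D5:**
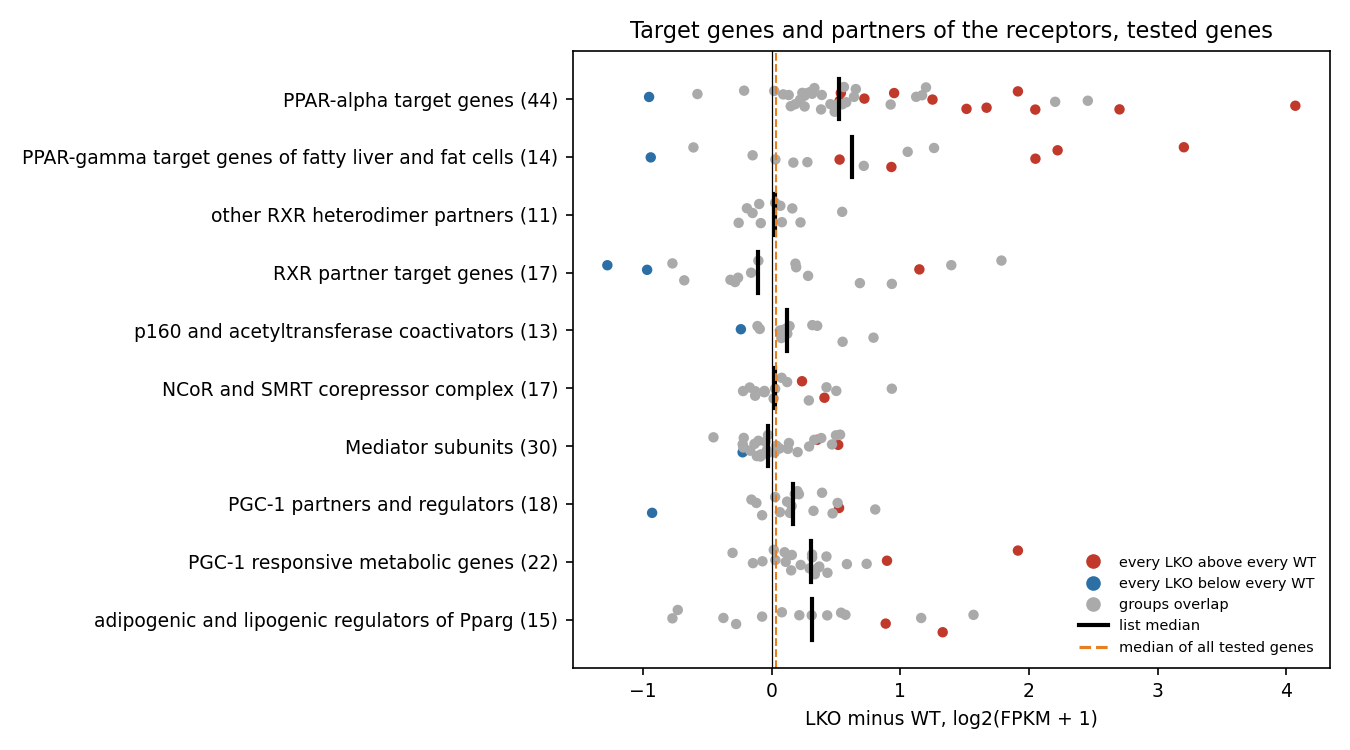
LKO minus WT differences on the log2(FPKM + 1) scale for the tested genes of 10 lists of targets and partners, with the number tested in brackets, list medians as black bars and the median of all tested genes as a dashed line. Red points are genes whose LKO libraries all exceed their WT libraries and blue points the opposite. Medians of the PPAR-alpha and PPAR-gamma target lists are 0.53 and 0.62, and those of the other 8 lists lie between -0.10 and 0.31.

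Other partners and targets of the RXRs, and the complexes around the coregulators, had list medians between -0.10 and 0.12, against 0.03 for all tested genes. Of 11 genes tested in the list of other RXR partners, which also holds Rxrg, an RXR (1.64, 0.668 and 4.03 FPKM in LKO libraries, 2.26, 2.23 and 2.15 FPKM in WT libraries), 0 separated the groups. The list median was 0.03, and 0.05 without Rxrg. An example is the bile acid receptor gene Nr1h4 (123, 65.8 and 50.2 FPKM in LKO libraries, 97.5, 73.3 and 97.3 FPKM in WT libraries). Among 17 targets of those partners 1 was above and 2 below, against 8.00% and 7.42% of all tested genes (median -0.10). The cholesterol exporter gene Abca1, a target of liver X receptors, was at 20.0, 25.2 and 12.1 FPKM in LKO libraries and 8.28, 6.76 and 8.23 FPKM in WT libraries (log2 difference 1.15, limma adjusted p = 0.319). Abcg5, a sterol exporter gene with the same regulators, lay the other way, at 38.2, 24.3 and 40.2 FPKM in LKO libraries and 89.8, 48.5 and 66.9 FPKM in WT libraries (log2 difference -0.97, limma adjusted p = 0.455).

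Of 13 other p160, acetyltransferase and related coactivators, Prmt1, Carm1 and Ctnnb1 among the related ones, 0 were above and 1 was below. The gene below was the acetyltransferase gene Crebbp (1.76, 1.50 and 1.44 FPKM in LKO libraries, 1.97, 2.01 and 2.10 FPKM in WT libraries, limma adjusted p = 0.773). Of 17 genes of the NCoR and SMRT corepressor complexes and related corepressors 2 were above and 0 below, Rcor1 (2.40, 3.04 and 3.76 FPKM in LKO libraries, 2.26, 2.10 and 1.75 FPKM in WT libraries) and Nrip1 (0.742, 0.737 and 0.960 FPKM in LKO libraries, 0.679, 0.481 and 0.458 FPKM in WT libraries). Of 30 other Mediator subunits 2 were above and 2 below, with a median of -0.03. Med7 showed the smallest p of them, at 3.18, 3.48 and 1.80 FPKM in LKO libraries and 1.57, 1.68 and 1.58 FPKM in WT libraries (log2 difference 0.52, limma adjusted p = 0.585). None of these genes passed the test over all genes. Of all tested genes 8.00% lay above and 7.42% below.

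Partners of the PGC-1 coactivators held 1 gene of each direction among 18 tested. Of all tested genes 8.00% lay above and 7.42% below. Esrra, the estrogen-related receptor through which PGC-1 proteins act on mitochondrial genes, was at 11.4, 7.58 and 13.4 FPKM in LKO libraries and at 25.5, 19.8 and 18.1 FPKM in WT libraries (log2 difference -0.93, 95% interval -1.62 to -0.24, limma adjusted p = 0.389). LKO replicate 2 was lowest for both Esrra and Ppargc1b, as it was for 14.8% of all tested genes, and a link between the 2 was not tested. Hnf4a, a hepatocyte transcription factor that PGC-1alpha coactivates, was at 144, 190 and 107 FPKM in LKO libraries and 103, 100.1 and 94.9 FPKM in WT libraries (log2 difference 0.52, limma adjusted p = 0.695). Among 22 genes listed as responding to PGC-1 proteins, 1 of them Ppargc1a itself, 2 were above and 0 below (median 0.31, or 0.30 without Ppargc1a). These were Pdk4, tested only through its LKO values, and G6pc, the glucose-6-phosphatase gene of gluconeogenesis, at 313, 198 and 388 FPKM in LKO libraries and 135, 155 and 177 FPKM in WT libraries (log2 difference 0.90, limma adjusted p = 0.497). G6pc ran in the order of Ppargc1a over the LKO libraries but not over the WT libraries.

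Of 15 regulators that act upstream of Pparg in fat cells, 2 were above and 0 below, against 8.00% and 7.42% of all tested genes (median 0.31). Cebpd, an early adipogenic factor also known from the acute phase response, was at 11.6, 16.6 and 8.33 FPKM in LKO libraries and 3.20, 3.79 and 5.47 FPKM in WT libraries (log2 difference 1.33, limma adjusted p = 0.251). Fosl2, an AP-1 factor, was at 4.24, 2.15 and 1.05 FPKM in LKO libraries and 0.707, 0.617 and 0.939 FPKM in WT libraries (log2 difference 0.89, limma adjusted p = 0.486).

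Pparg is also expressed in fat cells and macrophages, and in bulk tissue fewer cells of a type and less RNA per cell cannot be told apart. Of 10 adipocyte markers 4 (Lep, Plin1, Retn and Slc7a10) were listed at 0 in all 6 libraries, and Adipoq was at 0.171 FPKM in LKO replicate 1 and listed at 0 in the other 5. Aqp7 was at most 0.0226, Cfd at most 0.903 and Fabp4 at most 3.12 FPKM. Lipe was present in all 6 libraries, from 2.20 FPKM (LKO replicate 2) to 5.59 FPKM (LKO replicate 1). The sum over the 10 markers, nearly all of it Car3, which hepatocytes also express, was 755 to 1189 FPKM in LKO libraries and 533 to 1576 FPKM in WT libraries. Of 10 macrophage and Kupffer cell markers 9 were tested, and 0 separated the groups. Their sum was 31.7 to 58.6 FPKM in LKO libraries and 23.4 to 50.0 FPKM in WT libraries. Stellate cell markers summed to 45.9 to 124 FPKM in LKO libraries and 62.4 to 71.3 FPKM in WT libraries, and sinusoidal endothelial markers to 28.3 to 75.0 FPKM in LKO and 46.3 to 63.6 FPKM in WT libraries, again overlapping. Neutrophil markers (3 of 8 tested, 1 above) summed to 2.83 to 12.7 FPKM in LKO libraries and 0.560 to 3.23 FPKM in WT libraries, and lymphocyte markers (2 of 10 tested, both below) to 1.51 to 2.42 FPKM in LKO and 3.27 to 6.52 FPKM in WT libraries. Cholangiocyte markers (3 of 8 tested, 1 below) summed to 9.33 to 31.1 FPKM in LKO libraries and 14.9 to 24.8 FPKM in WT libraries, and the 8 skeletal muscle markers (1 tested and below, 6 listed at 0 in all 6 libraries) to 0.149 to 0.445 FPKM in LKO and 0.821 to 1.76 FPKM in WT libraries. The part of the neutrophil, lymphocyte and muscle transcripts in these results was not tested. Hepatocyte markers, which define the labelled tissue, summed to 49599 to 69545 FPKM in LKO libraries and 46329 to 60098 FPKM in WT libraries.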

How the data were processed

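RNA of mouse liver was measured in 3 LKO and 3 WT libraries, grouped and numbered by title. Each deposited table held the FPKM of 1 library, as judged from its values. Build mm10 and the tools featureCounts 1.5.0-p3, HISAT2 2.0.5, CASAVA and DESeq2 1.20.0 stand in the submitters' processing notes, which give no roles. No source used here gives the annotation or strand setting. Symbols, coordinates and merged exon lengths came from GENCODE vM21 (54495 of 54532 identifiers). FPKM multiplied by exon length fell on whole reads within 0.05 for 95.9% to 96.3% of values above 0, which gave the read numbers. The totals the FPKM imply, 12704118 to 19279624, were not the sums of those reads, so the deposited values carry a scaling between libraries that no label describes.

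The design named tests for counts and for FPKM, and the one for FPKM was used: limma-trend (limma 3.58.1, R 4.3.3) with robust empirical Bayes on log2(FPKM + 1), over genes averaging 0.5 FPKM or more, genotype as the only term, Benjamini-Hochberg over all 11672 genes. Such differences understate changes of low genes. Within-library balances had exact permutation tests, two-sided. Named genes were all 10 members, Arid2, up to 4 genes of smallest p per list and the 5 genes most like Pparg, plus genes singled out where a count was small. Ehhadh, Hsd17b4, Cyp4a10, Acadl, Acsl1, Lpl, the marker genes and those with printed motif windows were chosen after their values were seen. Some genes that are counted in the lists are not reported here by name. The members and lists were chosen with earlier results of these data known. On simulated data for this comparison, with 11429 genes, the fit called 11.3% of 62 genes changed 2-fold, 79.0% of 62 changed 4-fold and 100% of 72 changed 8-fold, and 14 unchanged genes. The simulation used a single spread (the median over genes) for every gene and library. Array quality weights of the real libraries ran from 0.299 to 5.44, so these shares need not hold for the real data. Alternatives were other pseudocounts, filters and scalings, voom, array quality weights, the replicate number as a block and libraries left out. Python 3.11.15 with scipy 1.17.1 was used for the permutation tests and matplotlib 3.10.9 for figures.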

Additional observations from a re-analysis of the deposited data

How the results depend on the processing

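Other settings and left-out libraries changed no direction for Pparg, Ppara, Ppargc1a, Ppargc1b, Med1 or Ncor1. The 5 balances kept theirs with a library left out, under the block and, for the 3 ratios of single genes, with other pseudocounts. Other scalings and weights were not run on them, or on the counts of genes whose groups separated. Pparg kept a log2 difference between 1.44 and 4.16. No member was called by limma except under array quality weights, where 1 was (Pparg, 1.44), and the estimation of those weights stopped before it converged. Signs turned, with 1 library left out, for Ppard (range -0.080 to 0.42; -0.067 without LKO replicate 1, -0.080 without WT replicate 2), Rxra (-0.056 to 0.60; -0.056 without LKO replicate 3), Rxrb (-0.018 to 0.17; -0.018 without WT replicate 2, -0.00064 without WT replicate 3) and Ncoa1 (-0.11 to 0.12; -0.11 without LKO replicate 3, -0.028 without WT replicate 3). Quantile normalization turned Rxrb (-0.084), and scaling to sums of reads turned Rxrb (-0.054) and Ncoa1 (-0.011). That scaling, which put the median of all genes at -0.047, the target list values without LKO replicate 3, the filter in both groups, lists without Rxrg or members, the Pparg fold with a library left out and Rxrg in the RXR sum were added after seeing the data. Over all genes limma called 5, against 1 without a filter, 3 with quantile normalization, 1195 with array quality weights, 2 without both replicate 1 libraries and 0 to 17 with 1 library left out; the cause was not tested.

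The replicate number as a block called 0 genes (limma, with 1478 at an unadjusted p under 0.05) and 0 members. Deviations of same-numbered libraries correlated at 0.49, 0.30 and -0.02, and those of differently numbered libraries at -0.58 to 0.45. These values do not settle whether the numbers pair the samples. Under the block the Pparg difference stayed at 1.89 (limma adjusted p = 0.140) and the balances could not go below an exact p of 0.25. Depth limits the level of Pparg in WT replicate 1 (1 read) and of Ppargc1b in LKO replicates 1 and 2 (10 and 5 reads).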

Other observations

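The 5 genes whose profile over the 6 libraries was most like that of Pparg, among 9772 others with a mean of at least 1 FPKM, were Ildr2, Maff, Pcp4l1, Ggh and Oat. Likeness is the root mean square difference between log2(FPKM + 1) profiles, each centred on its mean, and it was 0.19 for Ildr2 and 0.33 to 0.39 for the other 4. Ildr2, an immunoglobulin-like receptor gene linked to hepatic lipid handling in mice, was at 4.49, 6.34 and 6.19 FPKM in LKO libraries and at 0.509, 1.04 and 2.20 FPKM in WT libraries. Maff, a small MAF transcription factor gene, was at 18.5, 12.1 and 18.3 FPKM in LKO libraries and at 1.66, 4.14 and 4.24 FPKM in WT libraries. Oat, the ornithine aminotransferase gene, was at 384, 497 and 604 FPKM in LKO libraries and at 145, 215 and 351 FPKM in WT libraries. All 5 were lowest in WT replicate 1, as Pparg was. Choosing them by likeness to Pparg favours this, and 21.9% of all tested genes were lowest in that library. Of the other receptors and coregulators Ppara was the most like Pparg, at 0.745 and place 371 among these genes, and Ppargc1b the least, at 1.50 and place 9071. These are descriptions of the profiles, with no test.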
